A study of Rattus norvegicus with 4 samples.

Results

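The interleukin 6 family, with its receptors, its main transcription factor and the inhibitors that transcription factor induces, was followed in rat aortic smooth muscle cells given platelet-derived growth factor BB (PDGF-BB). It was taken as 10 genes: the ligands Il6, Il11 and Lif, the receptor chains Il6r, Il6st, Osmr and Lifr, the transcription factor Stat3, and the inhibitors Socs1 and Socs3. All probe sets annotated to exactly 1 gene symbol that is one of these were kept, which gave 14 probe sets for 9 of the 10 genes, out of 23707 probe sets and 12922 genes in the whole table. Il6st had 4 of these probe sets, Stat3 and Socs1 had 2 each, and the other genes had 1. No such probe set was found for Osmr, the oncostatin M receptor chain, which was not analysed here.

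Both groups were cultured smooth muscle cells of the rat aorta, the contractile cells of the vessel wall. The cells were plated at 10000 per cm2 in 10% FBS for 24 h and then held for 72 h in medium free of serum and insulin. After a wash, 2 samples received 30 ng/mL of PDGF-BB, which makes such cells divide, and 2 received its vehicle, 0.2% BSA in 10 mM acetic acid, in the same medium, and all were taken after 3 h. The stated purpose was to find early genes of phenotypic modulation, the switch of smooth muscle cells away from the contractile state. The rats' strain, sex and age and the cells' passage are not stated in the labels. The labels do not tell whether the 2 samples of a group were grown separately; the p-values therefore cover only the spread between the arrays at hand, and that spread may be technical.

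The cytokines of this family share one signalling chain, gp130, the product of Il6st. Interleukin 6 and interleukin 11 bind a chain of their own, Il6r or Il11ra1, which recruits gp130, while leukaemia inhibitory factor (Lif) uses gp130 paired with the Lifr chain. Janus kinases bound to gp130 activate the transcription factor Stat3, and among the genes Stat3 induces is Socs3, which binds gp130 and shuts the signal off. In the vessel wall, smooth muscle cells are known as a source of interleukin 6 and respond to it.

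Values are the deposited probe set intensities, a linear scale in arbitrary units. The table gives no detection calls, so the highest intensity of 27 Bacillus control probe sets, 80.3, was taken as a rough guide to background. The labels do not say whether those transcripts were added to the samples. Between 41.0% and 41.8% of probe sets on each array lay at or below it. Median intensities were 145 and 148 with vehicle against 144 and 132 with PDGF-BB. The first PDGF-BB array read above the second in 67.7% of all probe sets and in 12 of the 14 probe sets of the family. All 8 smooth muscle markers lay above the guide on every array. Their summed intensities were 38828 to 39365 with vehicle and 36769 to 37723 with PDGF-BB. Of them 3, the contractile genes Myh11, Smtn and Lmod1, were called lower, beside 15.2% of all genes. Acta2, Tagln, Cnn1, Des and Myocd were not called. Of the 2 probe sets of Myh11, 1 was called. The 4 endothelial markers measured (Pecam1, Vwf, Tie1 and Kdr) lay below it on all arrays and summed to 47.5 to 52.2 with vehicle and 51.4 to 58.6 with PDGF-BB. Of 7 macrophage and leukocyte markers, 5 lay below it on all arrays, among them the pan-leukocyte gene Ptprc and the macrophage genes Cd68 and Adgre1. That list summed to 1624 to 1672 with vehicle and 1381 to 1494 with PDGF-BB, and most of the sum was Cd14. The 5 adventitial fibroblast markers summed to 319 to 343 and 265 to 315, with Dcn and Dpt below the guide. None of these non-muscle markers was called in either direction.

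After PDGF-BB, the ligands Il11 and Il6, the receptor chain Il6r, the transcription factor Stat3 and the inhibitor Socs3 rose. The ligand Lif was also called higher, which makes 6 of the 9 measured genes, but it lay below the background guide on all 4 arrays. None was called lower, and Il6st, Lifr and Socs1 did not pass the test. The calls of Lif and Stat3 were lost whenever 1 array was left out. A gene is called here when the limma test, two-sided and fitted on log2(intensity + 16) across all 23707 probe sets, gives a Benjamini-Hochberg adjusted p under 0.05; the fold changes below are on that scale, which understates the change of dim genes. By the same test 12.4% of all genes were called higher and 15.2% lower, and among probe sets 11.4% were higher and 12.9% lower, against 7 of the 14 probe sets of the family called higher and 0 called lower. The balance of all calls turned with the scaling: 2712 probe sets were higher and 3067 lower as reported, 3831 and 3126 with median centring, and 3656 and 3474 with cyclic loess. The median log2 change was 0.89 over the 9 genes, which is the value of Lif itself, and -0.03 over all genes. Without the 3 genes below the guide in both groups, and with the 4 genes below it with vehicle set at the lower bound of their change, the median over the remaining 6 was 0.81. In 8 of the 9 genes both PDGF-BB arrays read above both vehicle arrays, an order that 29.7% of all genes showed. For Lif and Lifr, 2 of those 8, that order lies below the guide and is not read as a difference in level. Il6st counts among the 8 by its brightest probe set only, and its other probe sets overlapped or read lower with PDGF-BB. With any single array left out, 4 of the 9 genes stayed called, while the count of all probe sets called fell from 5779 to 1272 without the first vehicle array, 1383 without the second (781 higher and 491 lower, and 868 and 515), 4223 without the first PDGF-BB array and 3017 without the second. An exact permutation test of a single gene, 2 arrays against 2, allows 6 regroupings and a two-sided p no lower than 0.333, so the tests rest on the fit across all probe sets. In RNA from a whole culture, fewer cells making a transcript and less of it per cell cannot be told apart.

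**Figure D1:**
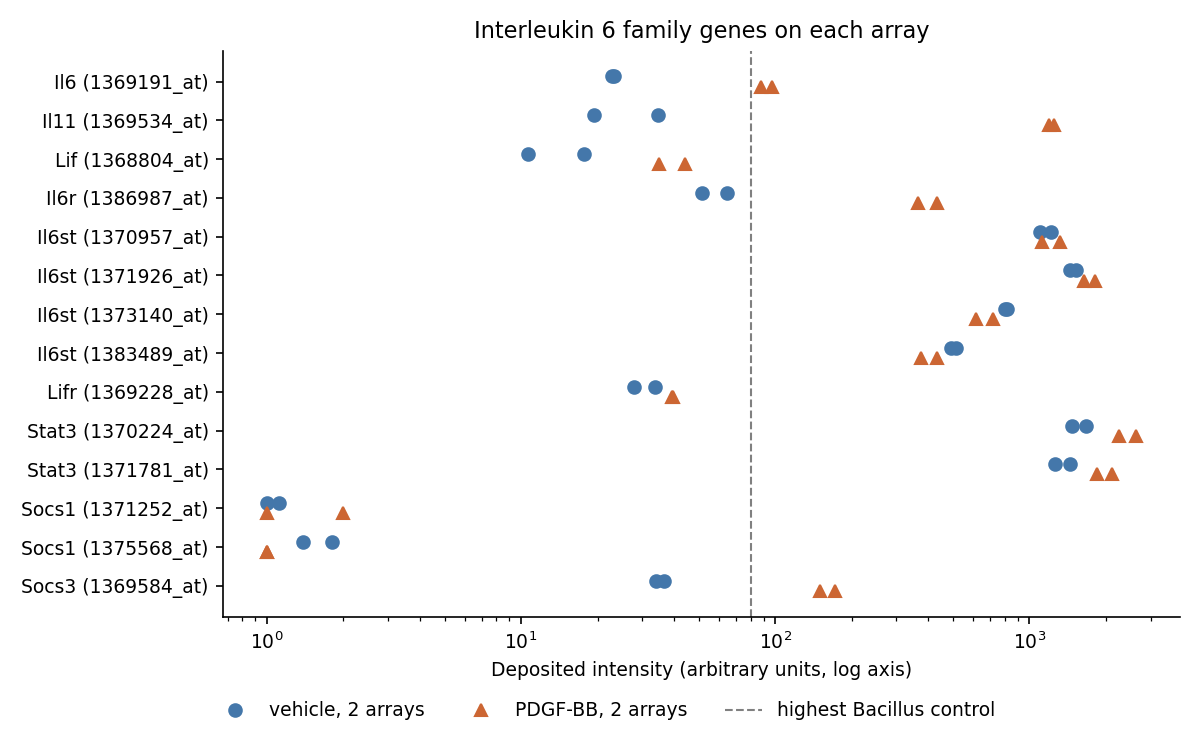
Deposited intensity (log axis, arbitrary units) of the 14 probe sets on the 2 vehicle arrays (circles) and the 2 PDGF-BB arrays (triangles), with the highest Bacillus control, 80.3, as a dashed line. Il6, Il11, Il6r and Socs3 cross the line between vehicle and PDGF-BB, Lif, Lifr and Socs1 stay to its left in both groups, and Il6st and Stat3 stay to its right.

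The windows before the annotated starts of Il11, Il6, Il6r and Socs3 are shown because these genes rose together. They are the 4 genes whose calls held under every alternative that gave them a value. Where transcription starts in these cells was not tested, so a window may not hold the promoter in use. Each window is the 250 bases before the RefSeq transcript start on build GRCr8, 5′ to 3′ on the gene's strand, with motif matches in capitals: Il11 at chr1:78098372-78098621 (plus strand), Il6 at chr4:5894576-5894825 (minus), Il6r at chr2:177645210-177645459 (minus) and Socs3 at chr10:103694769-103695018 (minus).
Il11: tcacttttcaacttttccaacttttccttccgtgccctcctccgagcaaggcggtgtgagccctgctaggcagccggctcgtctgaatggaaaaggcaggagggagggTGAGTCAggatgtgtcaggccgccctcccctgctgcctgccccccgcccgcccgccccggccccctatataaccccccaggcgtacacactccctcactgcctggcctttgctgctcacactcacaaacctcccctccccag
Il6: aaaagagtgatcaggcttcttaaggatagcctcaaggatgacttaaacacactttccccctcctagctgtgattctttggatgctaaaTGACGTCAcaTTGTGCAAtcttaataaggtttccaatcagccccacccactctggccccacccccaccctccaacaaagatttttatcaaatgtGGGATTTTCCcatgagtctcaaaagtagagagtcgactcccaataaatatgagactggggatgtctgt
Il6r: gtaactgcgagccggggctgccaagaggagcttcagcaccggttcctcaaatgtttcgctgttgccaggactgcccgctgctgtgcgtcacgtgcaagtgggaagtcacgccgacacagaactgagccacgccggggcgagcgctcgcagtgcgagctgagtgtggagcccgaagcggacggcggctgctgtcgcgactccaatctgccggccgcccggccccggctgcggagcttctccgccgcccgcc
Socs3: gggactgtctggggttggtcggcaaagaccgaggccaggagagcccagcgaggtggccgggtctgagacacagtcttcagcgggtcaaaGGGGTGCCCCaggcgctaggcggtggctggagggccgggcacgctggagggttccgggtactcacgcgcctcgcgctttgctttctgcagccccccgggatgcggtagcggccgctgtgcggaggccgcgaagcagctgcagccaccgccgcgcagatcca

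Both strands were searched for an AP-1 element (TGANTCA), a cyclic AMP response element (TGACGTCA), a STAT element (TTCNNNGAA), a C/EBP element (TTGCNNAA), the kappaB consensus and the CArG box, the latter pair by their usual 10-letter forms. The Il11 window held 1 match, the AP-1 element TGAGTCA at 142 to 136 bases before the start; 6.34% of 33465 rat promoter windows of the same length held that motif. The Il6 window held 3: the cyclic AMP response element at 162 to 155 bases before the start (1.59% of windows), the C/EBP element TTGTGCAA, a match on the opposite strand, at 152 to 145 (9.22%), and a kappaB match at 68 to 59 (6.33%). The Socs3 window held 1 kappaB match at 161 to 152, and the Il6r window held none of the 6 motifs. No searched motif was held by all 4 windows. Of the other members in the table of promoters, Socs1 held a STAT element (7.67% of windows) at 196 to 188 and a kappaB match at 66 to 57, Osmr held an AP-1 element at 33 to 27, and Il6st, Lifr and Stat3 held none. No CArG box was found in the 9 windows (1.5% of all windows). None of the matches overlapped another. A match describes letters in the window and not a site in use, and no match says only that these letters are not in that window.

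Il11 had the largest fitted change of the family. Its probe set (1369534_at) read 34.6 and 19.3 with vehicle and 1252 and 1193 with PDGF-BB. The PDGF-BB arrays were far above the vehicle arrays, and the vehicle arrays, below the background guide, differed more between themselves in proportion than the PDGF-BB arrays did. The mean went from 26.9 ± 10.8 to 1223 ± 41.9 (SD, n = 2 each), a log2 change of 4.87 (SE 0.20, limma adjusted p = 0.000813). Only a lower bound of the fold is warranted where the vehicle arrays lie below the guide, and Il11 was at least 15.2-fold higher, a bound that sets the mean of the PDGF-BB arrays over the guide of 80.3. Its fitted change ran from 3.83 with an offset of 64 to 5.51 with an offset of 1. Interleukin 11 is a secreted cytokine of stromal cells, known for its part in fibrosis.

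Il6, the founding cytokine of the family, rose from below the guide to just above it. It read 23.3 and 22.9 with vehicle and 96.7 and 87.9 with PDGF-BB (1369191_at). The groups did not overlap. The mean went from 23.1 ± 0.311 to 92.3 ± 6.26 (SD, n = 2 each), with a log2 change of 1.47 (SE 0.09, limma adjusted p = 0.00228). Against the guide, Il6 was at least 1.15-fold higher.

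Lif, a cytokine known for holding stem cells undifferentiated, read 10.7 and 17.7 with vehicle and 44.3 and 35.0 with PDGF-BB (1368804_at). Both PDGF-BB arrays read above both vehicle arrays, but all 4 lay below the guide, so no fold is given. The fit called it higher (limma adjusted p = 0.0247), with a fitted difference of 0.89 on the log2(intensity + 16) scale that depended on the offset, from 0.41 with 64 to 1.45 with 1, and gives no size of change. That call was lost whenever 1 array was left out: the adjusted p was 0.119 without the first vehicle array, 0.0620 without the second, 0.100 without the first PDGF-BB array and 0.0780 without the second. It was also lost with an offset of 1 in place of 16 (adjusted p = 0.0612).

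Il6r, the chain that binds interleukin 6, had the second largest fitted change of the family. It read 64.5 and 51.5 with vehicle and 432 and 364 with PDGF-BB (1386987_at). The PDGF-BB arrays lay well above both the vehicle arrays and the guide, while the vehicle arrays lay just under the guide. The mean went from 58.0 ± 9.21 to 398 ± 48.4 (SD, n = 2 each), a log2 change of 2.49 (SE 0.14, limma adjusted p = 0.00185). Il6r was at least 4.94-fold higher.

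Il6st, which encodes gp130, was well above background on every array and was not called by any of its 4 probe sets, whose changes went in different directions. The brightest (1371926_at), which stands for the gene in the counts, read 1439 and 1527 with vehicle and 1810 and 1639 with PDGF-BB. There the PDGF-BB arrays were the higher, with a log2 change of 0.21 (unadjusted 95% interval -0.06 to 0.48, limma adjusted p = 0.209). The probe set 1370957_at overlapped between groups, at 1100 and 1216 with vehicle and 1320 and 1124 with PDGF-BB (log2 change 0.07, adjusted p = 0.720). The remaining pair read lower with PDGF-BB without overlap. For 1373140_at the readings were 813 and 799 with vehicle and 720 and 616 with PDGF-BB, a log2 change of -0.27 (interval -0.57 to 0.03, adjusted p = 0.166). For 1383489_at they were 492 and 512 against 435 and 374, a log2 change of -0.31 (interval -0.60 to -0.01, adjusted p = 0.127). All 4 intervals exclude a change of 1 on the log2 scale in either direction.

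Within each array, the Il6st probe sets moved apart from one another. The log2 ratio of 1371926_at to 1373140_at was 0.82 and 0.93 with vehicle and 1.33 and 1.41 with PDGF-BB. The ratio of 1371926_at to 1383489_at was 1.55 and 1.58 with vehicle and 2.06 and 2.13 with PDGF-BB. Both ratios were higher with PDGF-BB, with no overlap between groups. The ratio of 1370957_at to 1373140_at was also higher, at 0.44 and 0.61 with vehicle and 0.87 and 0.87 with PDGF-BB. Its ratio to 1383489_at went from 1.16 and 1.25 to 1.60 and 1.59. The ratio of 1370957_at to 1371926_at went the other way, from -0.39 and -0.33 to -0.46 and -0.54. How often probe sets of other genes part in this way was not tested. The ratio of 1373140_at to 1383489_at was 0.73 and 0.64 with vehicle and 0.73 and 0.72 with PDGF-BB, so that pair kept together within the spread of the vehicle arrays. These ratios show unequal change between probe sets of 1 gene. Which transcripts each probe set reads was not tested.

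Lifr, the signalling chain for Lif, read 27.9 and 33.7 with vehicle and 39.6 and 39.1 with PDGF-BB (1369228_at). All 4 arrays lay below the guide, and the PDGF-BB arrays were slightly the higher. The log2 change of 0.25 (unadjusted 95% interval -0.03 to 0.52) was not called (limma adjusted p = 0.169).

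**Figure D2:**
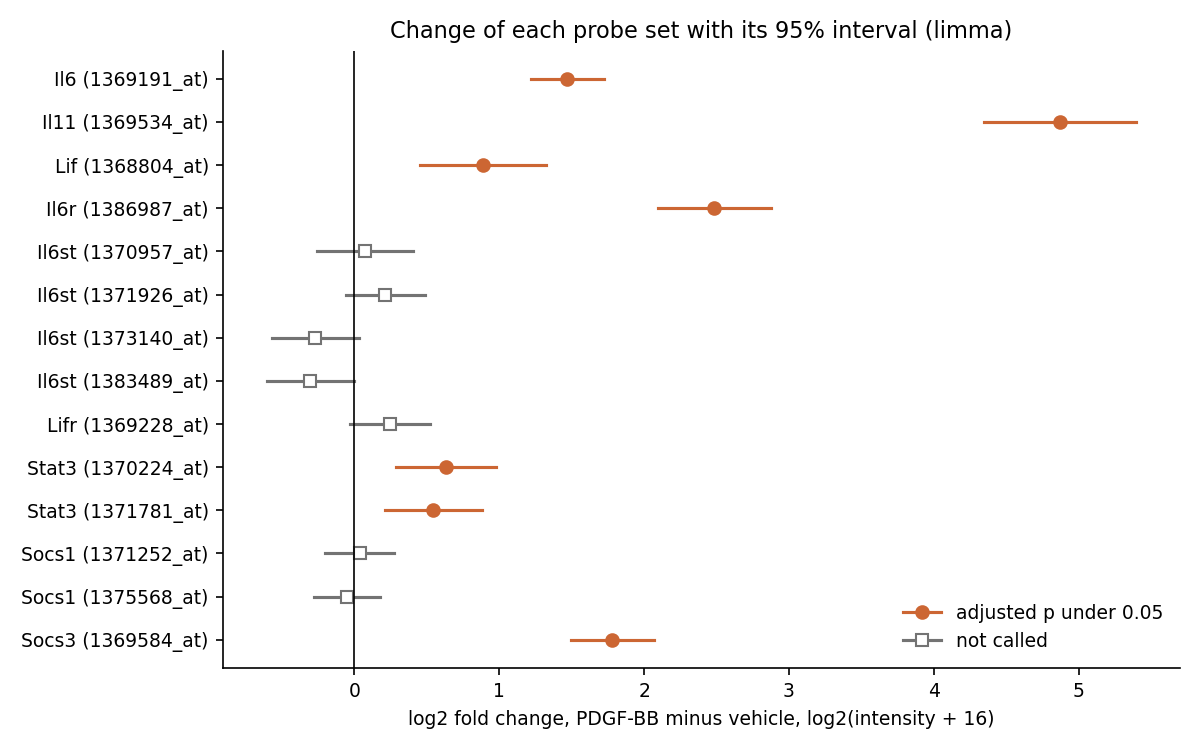
Change of each of the 14 probe sets (x axis, log2 fold change, PDGF-BB minus vehicle, on log2(intensity + 16)) with its unadjusted 95% interval from limma; filled circles have an adjusted p under 0.05 and open squares do not. The 7 called probe sets all lie to the right of 0, from 0.54 for one of Stat3 to 4.87 for Il11, and the 4 of Il6st lie on both sides of it.

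Stat3, the transcription factor of the pathway, was bright in both groups and rose moderately in both of its probe sets. The brighter (1370224_at) read 1471 and 1674 with vehicle and 2634 and 2259 with PDGF-BB. The other (1371781_at) read 1259 and 1439 with vehicle and 2108 and 1840 with PDGF-BB. In both, every PDGF-BB array lay above every vehicle array. The first had a log2 change of 0.63 (SE 0.13, limma adjusted p = 0.0320), 1.56 times the vehicle mean, and the second 0.54 (SE 0.12, adjusted p = 0.0429). The call of the brighter probe set was lost without any 1 array, with an adjusted p of 0.181 without the first vehicle array, 0.109 without the second, 0.0927 without the first PDGF-BB array and 0.0661 without the second, and with an offset of 1 (0.0663).

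Socs3, the feedback inhibitor that binds gp130, rose from near background. It read 34.1 and 36.6 with vehicle and 172 and 150 with PDGF-BB (1369584_at). The PDGF-BB arrays were above the guide and the vehicle arrays below it. The mean went from 35.4 ± 1.82 to 161 ± 15.5 (SD, n = 2 each), a log2 change of 1.78 (SE 0.11, limma adjusted p = 0.00195). Socs3 was at least 2.00-fold higher.

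Socs1, an inhibitor that blocks Janus kinases directly, was at the floor of the table. Its probe sets read 1.81 and 1.39 with vehicle and 1 and 1 with PDGF-BB (1375568_at), and 1 and 1.12 with vehicle and 1 and 2.00 with PDGF-BB (1371252_at). A value of exactly 1 on some array was listed for 837 probe sets. Neither was called (limma adjusted p = 0.723 and 0.812), and no level can be read from them.

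**Figure D3:**
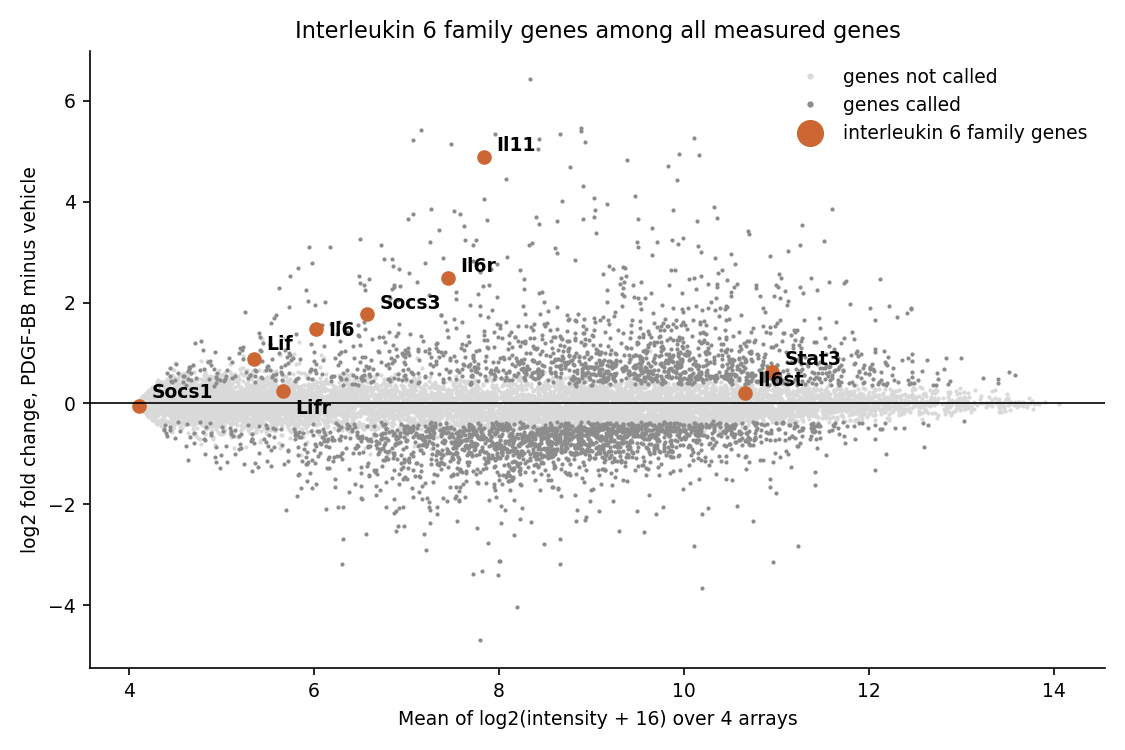
Each of the 12922 genes by its mean of log2(intensity + 16) over the 4 arrays (x axis) and its log2 fold change, PDGF-BB minus vehicle (y axis); dark grey points were called and light grey points were not. Il11 is drawn at 4.87 and Il6r, Socs3 and Il6 at 1.47 to 2.49, fitted values against vehicle arrays below the background guide, and Stat3 and Il6st lie among bright genes near the body of the points.

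The calls of Il11, Il6, Il6r and Socs3 held in every alternative processing that gave them a value: 13 for Il11, Il6r and Socs3, and 12 for Il6, which has none once dim probe sets are left out. Their log2 changes ran from 3.83 to 5.51 for Il11, 0.84 to 1.95 for Il6, 1.92 to 2.76 for Il6r and 1.18 to 2.15 for Socs3. The lowest value of each came with an offset of 64 and the highest with an offset of 1. The direction of these 4 genes was the same in all of these.

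**Figure D4:**
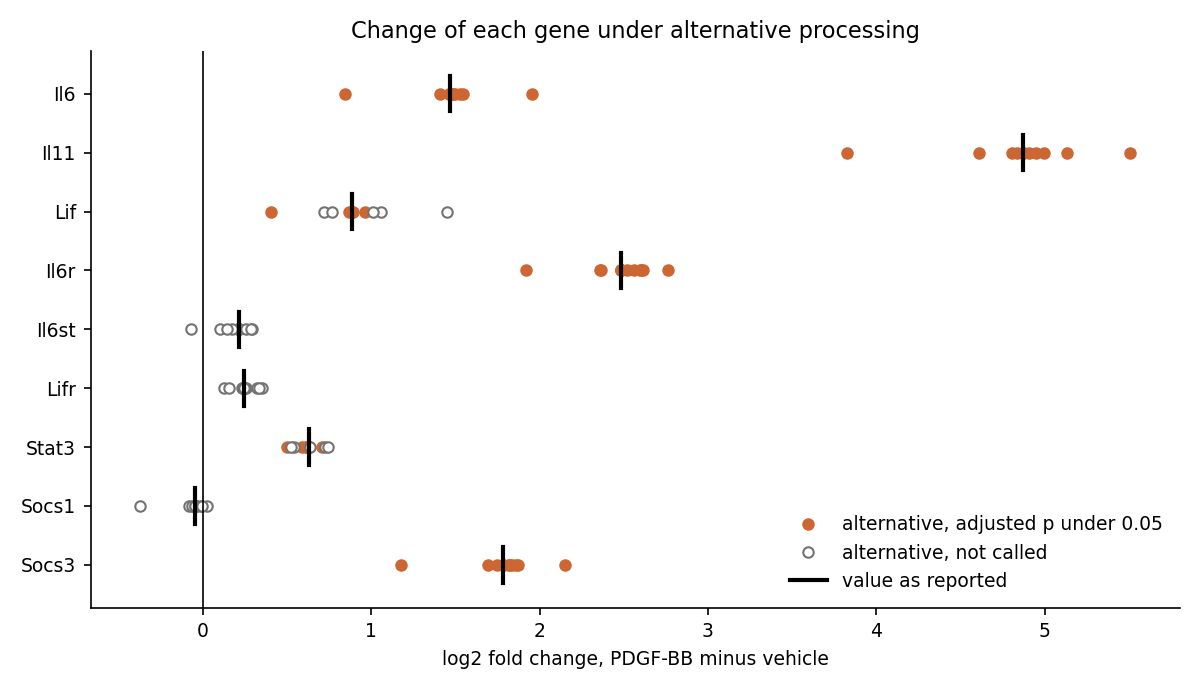
Log2 fold change, PDGF-BB minus vehicle, of each of the 9 genes as reported (black bar) and under each alternative processing (filled, adjusted p under 0.05; open, not called). All points of Il11, Il6, Il6r and Socs3 are filled, those of Lif and Stat3 are mixed, and those of Il6st, Lifr and Socs1 are open.

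Of the other ligands and receptors that work through gp130, 7 of 11 were measured. Of these, 1 was called higher, 2 were called lower and 4 did not pass the test, beside 12.4% higher and 15.2% lower among all genes. With so few genes, these counts do not set the list apart from those shares. The median log2 change was -0.21 against -0.03 over all genes, or -0.46 over the 4 genes above the guide in some group. Clcf1, a ligand of the ciliary neurotrophic factor receptor, read 189 and 189 with vehicle and 2595 and 2562 with PDGF-BB, all above the guide. Its log2 change of 3.66 (SE 0.08, limma adjusted p = 0.000433) was 13.7 times the vehicle mean. Il11ra1, the receptor chain for interleukin 11, read 1773 and 1786 with vehicle and 1248 and 1101 with PDGF-BB, so it fell while its ligand rose (log2 change -0.60, SE 0.10, adjusted p = 0.0214). Ctf1, which encodes the ligand cardiotrophin, read 676 and 683 against 457 and 482 (log2 change -0.52, SE 0.09, adjusted p = 0.0201). Cntf, the ciliary neurotrophic factor, did not pass the test at 197 and 208 against 169 and 134 (adjusted p = 0.110). Osm, the ligand of the Osmr chain and the neighbour of Lif in the rat annotation, named after its values were seen, stayed below the guide on all arrays (adjusted p = 0.796). Without the first vehicle array, the second vehicle array or the second PDGF-BB array, 1 gene of this list stayed called, and without the first PDGF-BB array 2 did; the highest adjusted p was 0.150 for Ctf1 and 0.139 for Il11ra1.

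Among the other Janus kinases, STAT factors and their inhibitors, 23 of 25 were measured. Of these, 6 were called higher, 2 were called lower and 15 did not pass the test, beside 12.4% higher and 15.2% lower among all genes. The median log2 change of the list was 0.12. All 4 genes with the smallest p were inhibitors or phosphatases that rose. Socs2, which dampens growth hormone signalling, went from 5.33 and 7.27 to 114 and 110, at least 1.39-fold higher (fitted log2 change 2.52, limma adjusted p = 0.000722; vehicle arrays below the guide). Sh2b3, an adaptor that restrains Jak2, went from 292 and 296 to 1652 and 1484 (2.35, SE 0.10, adjusted p = 0.000922). Socs5, a further member of the Socs family, went from 960 and 1061 to 4294 and 4365 (2.08, SE 0.10, adjusted p = 0.00110). Ptpn1, a phosphatase that acts on Janus kinases, went from 257 and 277 to 841 and 771 (1.54, SE 0.10, adjusted p = 0.00239). In each of these 4 genes every PDGF-BB array read above every vehicle array, an order that 29.7% of all genes showed. The 4 were picked by their small p, so this order adds no support of its own. Chosen after their values were seen, the 2 genes that fell were Pias3, an inhibitor of Stat3 binding to DNA (1301 and 1196 against 483 and 431; log2 change -1.42, SE 0.11, adjusted p = 0.00332), and Pias1 (-0.78, adjusted p = 0.00836; 0.0724 and 0.0836 without the first and the second vehicle array). The kinases, likewise chosen afterwards, were not called: Jak1 at -0.14 (adjusted p = 0.332), Jak2 at 0.53 (0.0547), Jak3 at 0.0020 (0.995) and Tyk2 at -0.39 (0.0839). Without the first or the second vehicle array, 5 of the 8 calls in this list were left, and 13 genes were called with dim probe sets left out.

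A list of genes known to respond to Stat3 in other cells held 27 genes, all measured. Within it, 13 were called higher, 2 were called lower and 12 did not pass the test. Among all genes, 12.4% were called higher and 15.2% lower. The median log2 change of the list was 0.41, against -0.03 over all genes. It was 0.54 over the 22 genes above the guide in some group, with Fos, named for this reason, at its bound. Many genes of the list also respond to growth factors through other pathways, so the list is not specific to Stat3. Ier3, an early response gene of cell survival, read 1434 and 1512 with vehicle and 7996 and 7975 with PDGF-BB (2.43, SE 0.09, limma adjusted p = 0.000710). Cebpd, a transcription factor of the acute phase response, read 535 and 511 against 2795 and 2726 in its brightest probe set (2.37, SE 0.09, adjusted p = 0.000710). Of the 3 probe sets of Cebpd, 2 were called. Junb, a subunit of AP-1, had a log2 change of 3.48 and Timp1, a protease inhibitor, one of 1.87. In both, the PDGF-BB arrays read above the vehicle arrays, an order that 29.7% of all genes showed. Both were picked by their small p, so this order adds no support of its own. Chosen after their values were seen, the 2 that fell were the repressor Bcl6 (-0.90, adjusted p = 0.0203) and the interferon regulatory factor Irf1 (-0.85, adjusted p = 0.0119); without the first and the second vehicle array their adjusted p was 0.112 and 0.112 for Bcl6 and 0.0826 and 0.0912 for Irf1, and with an offset of 1 it was 0.0505 for Bcl6. Of the acute phase genes, likewise chosen afterwards, A2m and Fgg stayed below the guide and were not called. Lbp, above the guide on every array, read 225 and 238 with vehicle and 201 and 134 with PDGF-BB. Hp read 84.5 and 68.3 with vehicle and 52.8 and 61.8 with PDGF-BB. Neither Lbp nor Hp was called (limma adjusted p = 0.185 and 0.1555). Without the first or the second vehicle array, 10 genes of this list stayed called in place of 15.

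Of the proteins that bind or cut mRNAs of the Il6 type, 8 of 10 were measured. Of these, 5 were called higher, 0 were called lower and 3 did not pass the test, beside 12.4% higher and 15.2% lower among all genes. The median log2 change of the list was 0.59, or 0.56 with Arid5a at its bound. Zfp36l2, which like Zfp36 binds AU-rich elements and speeds mRNA decay, went from 745 and 680 to 8462 and 8438 (3.54, SE 0.09, limma adjusted p = 0.000496), 11.9 times the vehicle mean. Zfp36 went from 1475 and 1366 to 3992 and 3903 (1.46, SE 0.09, adjusted p = 0.00227) and Zfp36l1 from 2255 and 2289 to 3822 and 3943 (0.77, SE 0.09, adjusted p = 0.00741). Arid5a, which stabilises Il6 mRNA, went from 74.2 and 64.3 to 134 and 127 (adjusted p = 0.0111); its vehicle arrays lay below the guide, so that it was at least 1.62-fold higher. The fifth, Elavl1, an AU-rich element binder that protects mRNAs, had a log2 change of 0.42 (adjusted p = 0.0337) and was named after its values were seen. The calls of Elavl1 and Arid5a were lost without any 1 array (highest adjusted p = 0.224 and 0.0903), that of Zfp36l1 without either vehicle array (0.0806 and 0.0742), and that of Elavl1 also with an offset of 1 (0.0592). None of these 5 genes had overlapping groups, with the PDGF-BB arrays higher, an order that 29.7% of all genes showed. The 5 were picked by their calls, so this order adds no support of its own. Without the first or the second vehicle array, 2 of the 5 calls were left, and without either PDGF-BB array 3 were. The 5 reference genes measured of 8 (Hprt1, Ywhaz, Tbp and Rplp0, with B2m named to complete the list) had a median log2 change of 0.18, and limma called 0 of them, with 0 at an unadjusted p under 0.05.

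**Figure D5:**
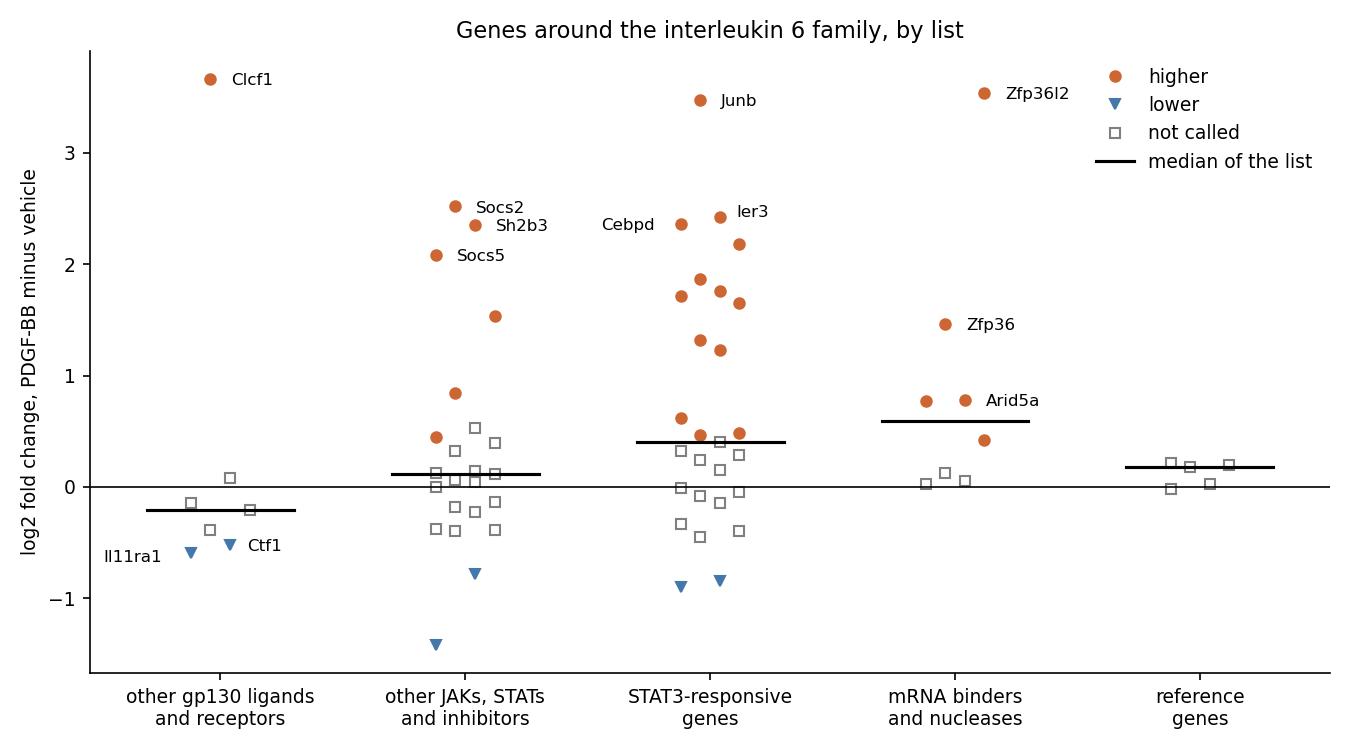
Log2 fold change, PDGF-BB minus vehicle (y axis), of each measured gene of 5 lists around the family (circles, higher; triangles, lower; squares, not called), with the median of each list as a bar and up to 3 called genes with the largest change named. Clcf1 at 3.66, Junb at 3.48 and Zfp36l2 at 3.54 stand highest in their lists, and the list medians run from -0.21 to 0.59.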

How the data were processed

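RNA from 2 vehicle and 2 PDGF-BB samples was labelled as biotinylated cRNA and hybridised to Affymetrix arrays, per the labels. The authors' deposited values are linear probe set intensities in 1 table; the software, background correction and scaling behind them were not given in the sources used here. Of 23764 probe sets, 57 controls were left out. By the platform annotation, dated 2016, 17279 of the rest carried 1 gene symbol, 373 carried several and 6055 carried none. A gene was represented by its probe set with the highest mean log2 value. Values were tested as log2(intensity + 16) with limma 3.58.1 in R 4.3.3, two-sided, adjusted by Benjamini-Hochberg over 23707 probe sets, threshold 0.05 (residual degrees of freedom 2, prior 2.40). The procedure was checked on simulated data. Depth is not defined for arrays; their number limits the precision.

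The members, gene lists, markers and motifs were chosen with earlier results of these data known. Named were all members and up to 4 genes of each list with the smallest p; others are marked as chosen after their values were seen. Alternatives were the offset, median centring, quantile and cyclic loess normalization, a filter on dim probe sets, an intensity trend in the prior, the mean of a gene's probe sets, a replicate block and each array left out. Promoter windows were taken before RefSeq starts (GRCr8), with entries for 9 of the 10 genes and none for Lif.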

Additional observations from a re-analysis of the deposited data

How the results depend on the processing

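Under the alternatives that gave a value, Il11, Il6, Il6r and Socs3 kept their direction and their call. Lif and Stat3 kept their direction and lost the call with an offset of 1 and without any 1 array. The Il6st change turned to -0.072 with the mean of its 4 probe sets, and that of Socs1 to 0.027 with median centring; neither was called in any fit. With 1 array left out, all probe sets called ranged from 1272 to 4223, genes called of the other gp130 ligands and receptors from 1 to 2, of the Janus kinase and STAT list from 5 to 7, and of the mRNA binders from 2 to 3; fewer arrays by themselves leave fewer residual degrees of freedom. With dim probe sets left out, 13 genes of the Janus kinase and STAT list were called and 4 members, since Il6 and Lif then have no value. With an intensity trend, 2 reference genes were called (Hprt1 and Ywhaz); the cause was not tested. Same-numbered arrays of the 2 groups deviated from their group means with a correlation of -0.098. With 1 array per number in each group, this value cannot tell whether they share a culture or a batch. The fit with the replicate block called 6 members and 4954 probe sets in place of 5779. Its limma adjusted p was 0.0221 for Lif and 0.0414 for Stat3. Of the genes named in the report it ended the calls of Elavl1 (adjusted p = 0.0826) and Pim1 (0.0570). No detection calls were given, so levels below the background guide have no order, which limits Lif, Lifr and Socs1, and Pim1 of the Stat3 list.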
